A study of Mus musculus with 69 samples.

Results

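Irf2bp2, Zfp777, Nfix, Khdrbs3 and Ranbp9 are 5 regulators of transcription, RNA processing and protein turnover, among 52404 genes listed in all 4 expression tables of a mouse kidney study. They were chosen by their measured response at 24 h after surgery, where the difference between operated and sham animals was below 0 in the proximal tubule and above 0 in the collecting duct. The chosen direction at 24 h is therefore a description and carries no test here. The values at 72 h were not part of the choice and were tested. Every member passed the filter on low values, a mean of at least 1 TPM, in all 4 tables. TPM is the length-corrected share of a library's transcripts that a gene holds, scaled to the same total in every library.

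All libraries were RNA-seq libraries of tubules dissected by hand from wild-type male C57BL/6 mice, 7 weeks old at surgery. Either a kidney had been removed by surgical excision, called unilateral nephrectomy (UNx), or the mouse had been sham operated, and dissection followed after 24 h or 72 h. The parts dissected were the beginning (S1) of the proximal tubule (PT-S1), which takes back most filtered solutes, or the cortical collecting duct (CCD), where water and sodium reabsorption is set by hormones. PT-S1 at 24 h held 3 sham and 4 UNx animals, with 8 and 9 libraries. PT-S1 at 72 h held 5 animals and 12 libraries in each group. CCD at 24 h held 4 sham and 3 UNx animals, with 8 and 7 libraries. CCD at 72 h held 4 animals in each group, with 7 sham and 6 UNx libraries. Libraries of 1 animal were averaged, so the animal is the replicate, and n counts animals. Whether PT-S1 and CCD came from the same mice was not given in the sources used here.

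Removal of a kidney is followed by growth of the other, to which proximal tubule cells contribute most by enlarging. Irf2bp2 is a corepressor that binds the interferon regulatory factor Irf2 and also works with Vgll4 and the Tead factors of the Hippo pathway. Zfp777 belongs to the KRAB zinc finger proteins, a class whose members commonly repress transcription through the corepressor Trim28. Not all of the class do so, and whether Zfp777 does was not examined here. Nfix is a nuclear factor I (NFI) protein, a family that binds DNA as dimers and controls differentiation in muscle and brain. Khdrbs3 belongs to the STAR family of RNA-binding proteins and regulates alternative splicing. Ranbp9 is a scaffold of the CTLH complex, an E3 ubiquitin ligase.

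The stretches upstream of the transcription start are shown for 3 members, because genes that differ together may share sequence there. RefSeq (GRCm38.p6) held a start for 4 of the 5 members, all but Khdrbs3. The 150 bases before the start are printed 5′ to 3′ on the gene's strand, with CG dinucleotides in capitals. The positions are chr8:126593987-126594136 for Irf2bp2, chr6:48047795-48047944 for Zfp777 and chr8:84780083-84780232 for Nfix, all on the minus strand of GRCm38.p6. For Nfix, which has 4 starts in that table, the most upstream start was taken. Which start these tubules use was not measured.
Irf2bp2: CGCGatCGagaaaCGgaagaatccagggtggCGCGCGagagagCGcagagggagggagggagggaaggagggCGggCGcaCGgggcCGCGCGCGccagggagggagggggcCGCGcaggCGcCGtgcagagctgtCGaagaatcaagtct
Zfp777: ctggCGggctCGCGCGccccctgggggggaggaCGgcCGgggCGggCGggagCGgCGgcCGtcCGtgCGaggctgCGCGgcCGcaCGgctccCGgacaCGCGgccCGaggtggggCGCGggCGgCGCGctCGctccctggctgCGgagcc
Nfix: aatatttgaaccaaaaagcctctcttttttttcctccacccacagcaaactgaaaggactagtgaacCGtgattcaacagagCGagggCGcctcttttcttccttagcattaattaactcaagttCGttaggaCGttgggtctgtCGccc
CG dinucleotides were dense before Ranbp9, Zfp777 and Irf2bp2 and much less so before Nfix. The 250 bases before the start held 45 CG in Ranbp9, 42 in Zfp777, 32 in Irf2bp2 and 11 in Nfix, against a median of 6 over all 32851 promoters of the table. The shares of promoters with at least as many were 0.405%, 0.865%, 4.58% and 35.6% in the same order. These promoters were not limited to genes that passed the filter on low values, among which the shares were not computed. The NFI half-site TTGGC, searched on both strands, stood in 1 of these 4 windows, that of Ranbp9, and in 41.5% of all promoters. A match is a description of the letters and not a site.

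All libraries carried the defining markers of the dissected segment, and single libraries also carried those of neighbouring segments. Summed TPM of Slc5a2, Slc34a1, Slc5a12 and Lrp2 (PT-S1) ranged from 1797 to 16100 in PT-S1 libraries and from 0.86 to 96.3 in CCD libraries. Summed TPM of Aqp2, Aqp3, Avpr2 and Scnn1b (principal cells) ranged from 13880 to 64760 in CCD and from 8.05 to 141.4 in PT-S1 libraries. Slc12a1 and Umod, of the thick ascending limb, summed to 6765 TPM in 1 library of sham animal 2 of CCD 24 h, against a median of 115.9 TPM in the sham libraries of that table. Slc7a13, Slc22a13 and Cyp7b1, of the S3 part of the proximal tubule, summed to 830.4 TPM in 1 library of sham animal 5 of PT-S1 72 h, against a median of 3.28 TPM in the sham libraries there. Their sum reached 350.1 TPM in the UNx libraries of PT-S1 24 h, against a median of 10.7 TPM. In CCD libraries it was 50.7 to 114.2 TPM, so these genes did not mark S3 alone. In PT-S1 72 h the next highest S3 sum, 163 TPM, was in library 3 of UNx animal 4. That library held the table's highest Khdrbs3 (12.55 TPM) and Ranbp9 (23.4 TPM), with 10.05 TPM of Irf2bp2, 4.15 of Zfp777 and 3.04 of Nfix. Library 2 of sham animal 5, with the highest sum, held 6.51, 12.99, 5.99, 4.67 and 4.09 TPM in the same order. The part of these segments in the members' values was not tested. Sequencing depth is unknown, since TPM keeps none. Genes at 1 TPM or more numbered from 9247 to 12494 in PT-S1 libraries and from 12681 to 14875 in CCD libraries. A median correlation under 0.92 with the rest of its table was found in 2 sham libraries of PT-S1 24 h, 2 UNx libraries of PT-S1 72 h and 1 sham library of CCD 72 h. In addition, library 1 of each UNx animal of CCD 24 h stood apart in the 5 genes described here. The members' differences at 24 h, at 72 h and between the segments, and the correlations that include library 1, are also given without the libraries in question.

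In sham animals the 5 genes differed in where they were most abundant. The tables were deposited separately, so levels across them are set side by side without a test. Nfix was 2.69 ± 1.27 TPM (SD, n = 5) in PT-S1 72 h, 6.69 ± 2.22 (n = 3) in PT-S1 24 h, 18.96 ± 2.82 (n = 4) in CCD 24 h and 70.7 ± 27.3 (n = 4) in CCD 72 h. The animals' ranges were separate at each step of that order. Irf2bp2 followed the order 10.7 ± 1.65 in PT-S1 72 h, 20.5 ± 6.27 in PT-S1 24 h, 20.9 ± 1.58 in CCD 24 h and 45.5 ± 35.5 TPM in CCD 72 h. The animals' ranges overlapped between all neighbours of that order except the lowest pair.
Zfp777 was 3.69 ± 0.665 TPM in PT-S1 72 h, 7.11 ± 0.881 in CCD 24 h, 8.24 ± 2.00 in PT-S1 24 h and 12.6 ± 4.82 in CCD 72 h, with overlapping neighbours except the lowest pair. Khdrbs3 was 1.44 ± 0.341 TPM in CCD 24 h, 3.62 ± 2.09 in PT-S1 72 h, 4.96 ± 3.02 in CCD 72 h and 9.56 ± 2.46 in PT-S1 24 h. Ranbp9 was 8.42 ± 1.64 TPM in CCD 24 h, 8.52 ± 1.83 in PT-S1 72 h, 16.6 ± 8.51 in CCD 72 h and 25.9 ± 10.8 in PT-S1 24 h. For Khdrbs3 and Ranbp9 all neighbours overlapped. All 5 genes had a higher sham mean at 24 h than at 72 h in PT-S1 and a lower one at 24 h than at 72 h in CCD. The 24 h sham values were part of the choice, which favours high ones in PT-S1 and low ones in CCD. This order therefore follows in part from the choice, and its share over all genes was not computed.

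In PT-S1 at 24 h all 5 genes were lower in UNx than in sham animals, the direction by which they were chosen. Irf2bp2 was 27.4, 15.1 and 19.0 TPM in the sham animals, against 4.13, 6.43, 7.41 and 8.19 TPM after UNx. Ranbp9 was 38.1, 21.7 and 17.8 TPM in sham animals, against 4.76, 3.67, 6.09 and 9.89 TPM after UNx. For both genes the lowest sham animal stood above the highest UNx animal.
Khdrbs3, the splicing regulator, was 11.9, 6.97 and 9.84 TPM in sham animals, against 1.27, 0.76, 2.84 and 4.98 TPM after UNx. Nfix was 4.91, 9.18 and 5.97 TPM in sham animals, against 1.29, 0.845, 1.78 and 3.07 TPM after UNx. Zfp777 was 10.5, 6.90 and 7.29 TPM in sham animals, against 3.71, 3.63, 4.21 and 3.98 TPM after UNx. UNx animal 4 was the highest UNx animal for 4 of the genes, and Zfp777 had the tightest UNx values. No UNx animal reached a sham animal in any of the 5 genes, which was so for 12.1% of the 11874 genes tested in that table.

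As differences on the log2(TPM + 1) scale, UNx minus sham, these were -1.43 for Irf2bp2, -0.85 for Zfp777, -1.48 for Nfix, -1.70 for Khdrbs3 and -1.76 for Ranbp9. The median over all genes of the table was -0.19. Single libraries did overlap between the groups. Sham animal 1 had a library with 73.0 TPM of Ranbp9 and 37.6 TPM of Irf2bp2 but 2.48 TPM of Nfix, and sham animal 3 had a library with 5.06 TPM of Ranbp9 and 6.10 TPM of Irf2bp2. These are the libraries of low correlation. Without them the differences were -1.56 for Irf2bp2, -0.84 for Zfp777, -1.65 for Nfix, -1.99 for Khdrbs3 and -1.79 for Ranbp9.

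In CCD at 24 h the 5 genes were higher in UNx animals, and the higher values came from 1 library of each animal. Nfix was 20.2, 15.2, 21.8 and 18.7 TPM in the sham animals, against 49.0, 45.0 and 34.1 TPM after UNx. Irf2bp2 was 22.3, 18.9, 22.0 and 20.3 TPM in sham animals, against 45.7, 41.7 and 28.8 TPM after UNx. Both genes were above every sham animal in all 3 UNx animals.
Khdrbs3 was 1.15, 1.93, 1.3 and 1.39 TPM in sham animals, against 7.31, 9.53 and 5.78 TPM after UNx. Ranbp9 was 10.3, 7.40, 9.18 and 6.78 TPM in sham animals, against 13.97, 17.1 and 13.2 TPM after UNx. Zfp777 was 7.62, 6.61, 8.05 and 6.14 TPM in sham animals, against 11.5, 14.2 and 10.9 TPM after UNx. Thus every member had all UNx animals above all sham animals, as had 5.55% of the 13775 genes tested. The differences were 0.58 for Irf2bp2, 0.58 for Zfp777, 0.85 for Nfix, 1.23 for Khdrbs3 and 0.47 for Ranbp9, against a median of -0.04 over all genes. A difference below 0 in PT-S1 and above 0 in CCD at 24 h, the rule by which the members were chosen, was found in 28.6% of the 10988 genes tested in both tables.

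Within the UNx animals of CCD 24 h, the library numbered 1 was far above the others of the same mouse. Nfix was 79.0, 67.5 and 67.4 TPM in library 1 of UNx animals 1, 2 and 3, and 19.0, 22.5, 19.6 and 15.2 TPM in their other 4 libraries. Irf2bp2 was 72.8, 66.3 and 51.9 TPM in library 1 and 18.6, 17.1, 16.4 and 18.1 TPM in the others. The other libraries lay within or close to the range of the 8 sham libraries, which ran from 14.3 to 21.8 TPM for Nfix and from 18.1 to 25.9 TPM for Irf2bp2.
Khdrbs3 was 12.1, 18.3 and 15.0 TPM in library 1 and 2.49, 0.77, 1.81 and 0.58 TPM in the others. Ranbp9 was 21.7, 28.5 and 27.0 TPM in library 1 and 6.25, 5.69, 5.25 and 7.37 TPM in the others. Zfp777 was 16.7, 20.8 and 17.0 TPM in library 1 and 6.37, 7.55, 7.92 and 7.71 TPM in the others. Khdrbs3 differed most within a mouse, with a ratio of library 1 to the mean of the others of 4.87, 23.7 and 12.5 in the 3 animals, and Zfp777 least, with 2.62, 2.76 and 2.18.

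**Figure D1:**
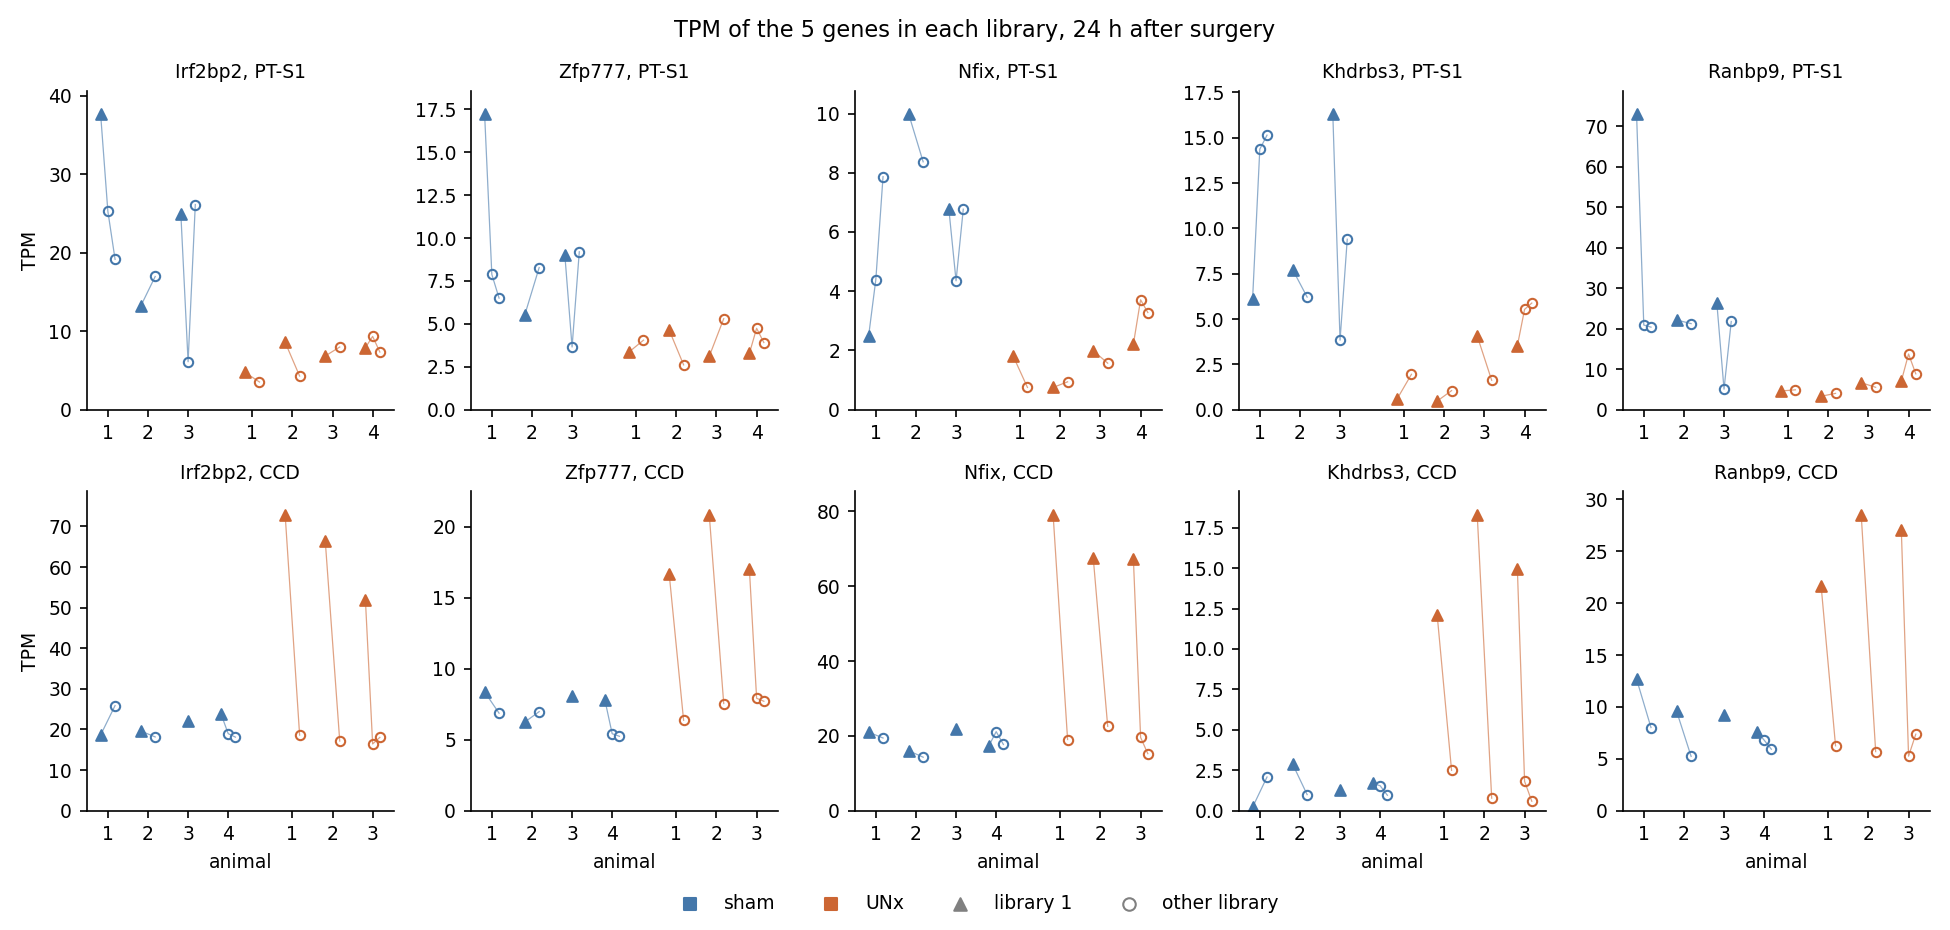
TPM (y axis) of the 5 genes in every library at 24 h, for PT-S1 (upper row) and CCD (lower row). Each position on the x axis is an animal, lines join its libraries, triangles are library 1 and open circles the other libraries, blue for sham and orange for UNx. In CCD, library 1 of the 3 UNx animals stands above all other libraries for each gene.

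Library 1 of all 3 UNx animals exceeded all 12 other libraries of that table in all 5 members. The same was so for 85 of the 13775 genes, or 0.617%, and this library-wise pattern was noticed after the values were seen. Without library 1, the differences between UNx and sham in CCD 24 h were -0.22 for Irf2bp2, 0.03 for Zfp777, 0.05 for Nfix, 0.02 for Khdrbs3 and -0.38 for Ranbp9. None of the 5 differences was then above 0.1. For UNx animal 2, the table's library number could not be matched to a sample title, while those of animals 1 and 3 could.

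Library 1 stood apart in the number of genes and, in 2 of 3 animals, in the mitochondrial share. Its median correlation with the other libraries was 0.963 to 0.967, inside the 0.962 to 0.969 of the sham libraries. It had 12992 to 13356 genes with at least 1 TPM, fewer than the other UNx libraries (13463 to 13766) and the sham libraries (13557 to 13957). The mitochondrial share of TPM was 1.24%, 2.39% and 1.63% in library 1 of UNx animals 1, 2 and 3, against 1.85% to 2.06% in the other UNx libraries and 1.93% to 2.81% in the sham libraries. Summed principal cell markers were 36810 to 64760 TPM in library 1, 39390 to 51050 TPM in the other UNx libraries and 13880 to 42760 TPM in sham libraries. Summed intercalated cell markers (Atp6v1g3, Atp6v0d2, Slc4a1, Slc26a4 and Foxi1) were 2858 to 3666 TPM in library 1 and 3027 to 3751 TPM in the other UNx libraries. Summed leukocyte markers (Ptprc, C1qa, Lyz2 and Cd74) were 119.5 to 408.7 TPM in library 1 and 177.5 to 288.2 TPM in the other UNx libraries. The part of these measures in the members' values was not tested. In bulk libraries, fewer cells of a type and less RNA per cell cannot be told apart.

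At 72 h the opposite response of the segments was not seen in any of the 5 genes. The count of members below 0 in PT-S1 and above 0 in CCD was 0 of 5, where 41.4% of the 11035 genes tested in both tables had these signs. The count was 0 to 2 when an animal was left out, reaching 2 without sham animal 1 or sham animal 2 of PT-S1. On the log2(TPM + 1) scale, limma gave 0 members past an adjusted p of 0.05 in PT-S1, in CCD or for the difference between the segments. The shares of all genes past that threshold were 0% in PT-S1 (0 of 11886), 0.595% in CCD (82 of 13770) and 0% for the difference (0 of 11035). The CCD count was 14, 10, 8 and 43 without UNx animals 1, 2, 3 and 4, and 43 without sham animal 2. No member had an unadjusted p under 0.05 either, which 20.5%, 7.49% and 9.33% of genes had in these 3 comparisons. With other settings some did, without passing the adjustment: Ranbp9 in PT-S1 (unadjusted limma p = 0.0495 with median-ratio scaling, 0.0397 with quantile normalization and 0.0161 without the libraries of low correlation), and Irf2bp2 in CCD (0.0383 without sham animal 1). For the difference between the segments, Irf2bp2 had an unadjusted limma p of 0.0491 with quantile normalization, 0.0393 without the libraries of low correlation and 0.0433 without sham animal 1 of CCD.

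In PT-S1 at 72 h, sham and UNx animals overlapped in all 5 genes, whereas 5.56% of genes did not overlap. Irf2bp2 was 9.88, 9.88, 9.76, 13.6 and 10.4 TPM in the sham animals, against 16.7, 10.6, 10.1, 10.4 and 8.87 TPM after UNx. On the log2(TPM + 1) scale the difference was -0.12 (95% interval -0.45 to 0.22, two-sided exact permutation p = 0.317, limma adjusted p = 0.613). UNx animal 1 was the highest animal by mean TPM, and its 2 libraries held 30.1 and 3.21 TPM.
Ranbp9, the ligase scaffold, was 5.51, 9.34, 9.14, 8.28 and 10.3 TPM in sham animals, against 9.30, 11.6, 8.95, 13.1 and 11.0 TPM after UNx. Its difference was 0.05 (interval -0.42 to 0.52, exact permutation p = 0.825, limma adjusted p = 0.898). Khdrbs3 was 1.29, 1.74, 5.88, 3.75 and 5.45 TPM in sham animals, against 4.88, 4.45, 2.46, 6.45 and 4.47 TPM after UNx. Its sham animals alone spanned nearly the whole range of the UNx animals, and the difference was 0.14 (interval -0.52 to 0.80, exact permutation p = 0.698, limma adjusted p = 0.765).
Nfix was 1.40, 2.38, 4.34, 1.67 and 3.64 TPM in sham animals, against 4.25, 4.08, 1.70, 2.42 and 1.85 TPM after UNx, a difference of 0.04 (interval -0.52 to 0.60, exact permutation p = 0.849, limma adjusted p = 0.926). Zfp777 was 2.98, 2.99, 4.10, 4.40 and 4.003 TPM in sham animals, against 4.34, 3.78, 3.39, 3.61 and 3.54 TPM after UNx, a difference of -0.15 (interval -0.48 to 0.19, exact permutation p = 0.254, limma adjusted p = 0.537). The smallest exact p that 5 against 5 animals allow is 0.00794. These differences average the log2 values of an animal's libraries, whereas the animal values printed are plain means of TPM. From the log2 of the mean TPM they were 0.05 for Irf2bp2, 0.02 for Zfp777, 0.08 for Nfix, 0.35 for Khdrbs3 and 0.32 for Ranbp9. The limma adjusted p then ranged from 0.274 (Ranbp9) to 0.936 (Zfp777).

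The median of all genes in PT-S1 72 h was -0.29, so the members lay above it. With median-ratio scaling, which moved that median to 0.01, the differences were 0.21 for Irf2bp2, 0.06 for Zfp777, 0.34 for Nfix, 0.40 for Khdrbs3 and 0.34 for Ranbp9, with limma adjusted p from 0.387 (Ranbp9) to 0.841 (Zfp777). The UNx libraries of low correlation, library 2 of animals 1 and 2, held the lowest values of Irf2bp2 (3.21 and 3.6 TPM), Zfp777 (0.34 and 0.95 TPM) and Ranbp9 (1.32 and 2.23 TPM) of all 24 libraries. Without these 2 libraries the differences were 0.37 for Irf2bp2, 0.33 for Zfp777, 0.30 for Nfix, 0.55 for Khdrbs3 and 0.62 for Ranbp9. The limma adjusted p then ranged from 0.209 (Ranbp9) to 0.673 (Nfix), so none passed.

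In CCD at 72 h the 5 genes varied widely among animals of both groups, and the groups overlapped for each, as they did for all but 4.77% of genes. Irf2bp2 was 19.97, 97.8, 36.5 and 27.8 TPM in the sham animals, against 38.4, 25.4, 14.3 and 17.98 TPM after UNx. Its difference was -0.75 (interval -1.74 to 0.24, exact permutation p = 0.200, limma adjusted p = 0.817). Sham animal 2, which had 1 library, was the highest animal, and without it the difference was -0.30.
Nfix was 99.5, 88.6, 45.0 and 49.9 TPM in sham animals, against 115.2, 54.4, 49.9 and 65.7 TPM after UNx, a difference of 0.01 (interval -0.69 to 0.70, exact permutation p = 0.971, limma adjusted p = 0.999). Ranbp9 was 18.6, 27.8, 10.02 and 10.003 TPM in sham animals, against 28.3, 9.91, 11.3 and 13.8 TPM after UNx, a difference of -0.01 (interval -0.84 to 0.82, exact permutation p = 0.971, limma adjusted p = 0.999). Zfp777 was 11.4, 19.6, 10.9 and 8.62 TPM in sham animals, against 18.7, 7.80, 9.10 and 9.34 TPM after UNx, a difference of -0.13 (interval -0.80 to 0.54, exact permutation p = 0.571, limma adjusted p = 0.966). For Nfix, Ranbp9 and Zfp777, UNx animal 1 was the highest UNx animal, and sham animals 1 and 2 were the highest sham animals.
Khdrbs3 was 6.17, 8.53, 1.65 and 3.49 TPM in sham animals, against 11.5, 3.39, 6.74 and 7.85 TPM after UNx. It was the only member with a positive difference above 0.1 in both segments at 72 h, here 0.60 (interval -0.36 to 1.55, exact permutation p = 0.257, limma adjusted p = 0.867). The smallest exact p that 4 against 4 animals allow is 0.0286. Libraries of 1 animal also lay apart. Ranbp9 was 28.6 and 8.54 TPM in those of sham animal 1, and Irf2bp2 was 53.8 and 22.9 TPM in those of UNx animal 1. Without library 2 of sham animal 1, of low correlation, the differences were -0.80 for Irf2bp2, -0.31 for Zfp777, -0.03 for Nfix, 0.66 for Khdrbs3 and -0.21 for Ranbp9. The limma adjusted p then ranged from 0.430 (Irf2bp2) to 0.979 (Nfix).

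**Figure D2:**
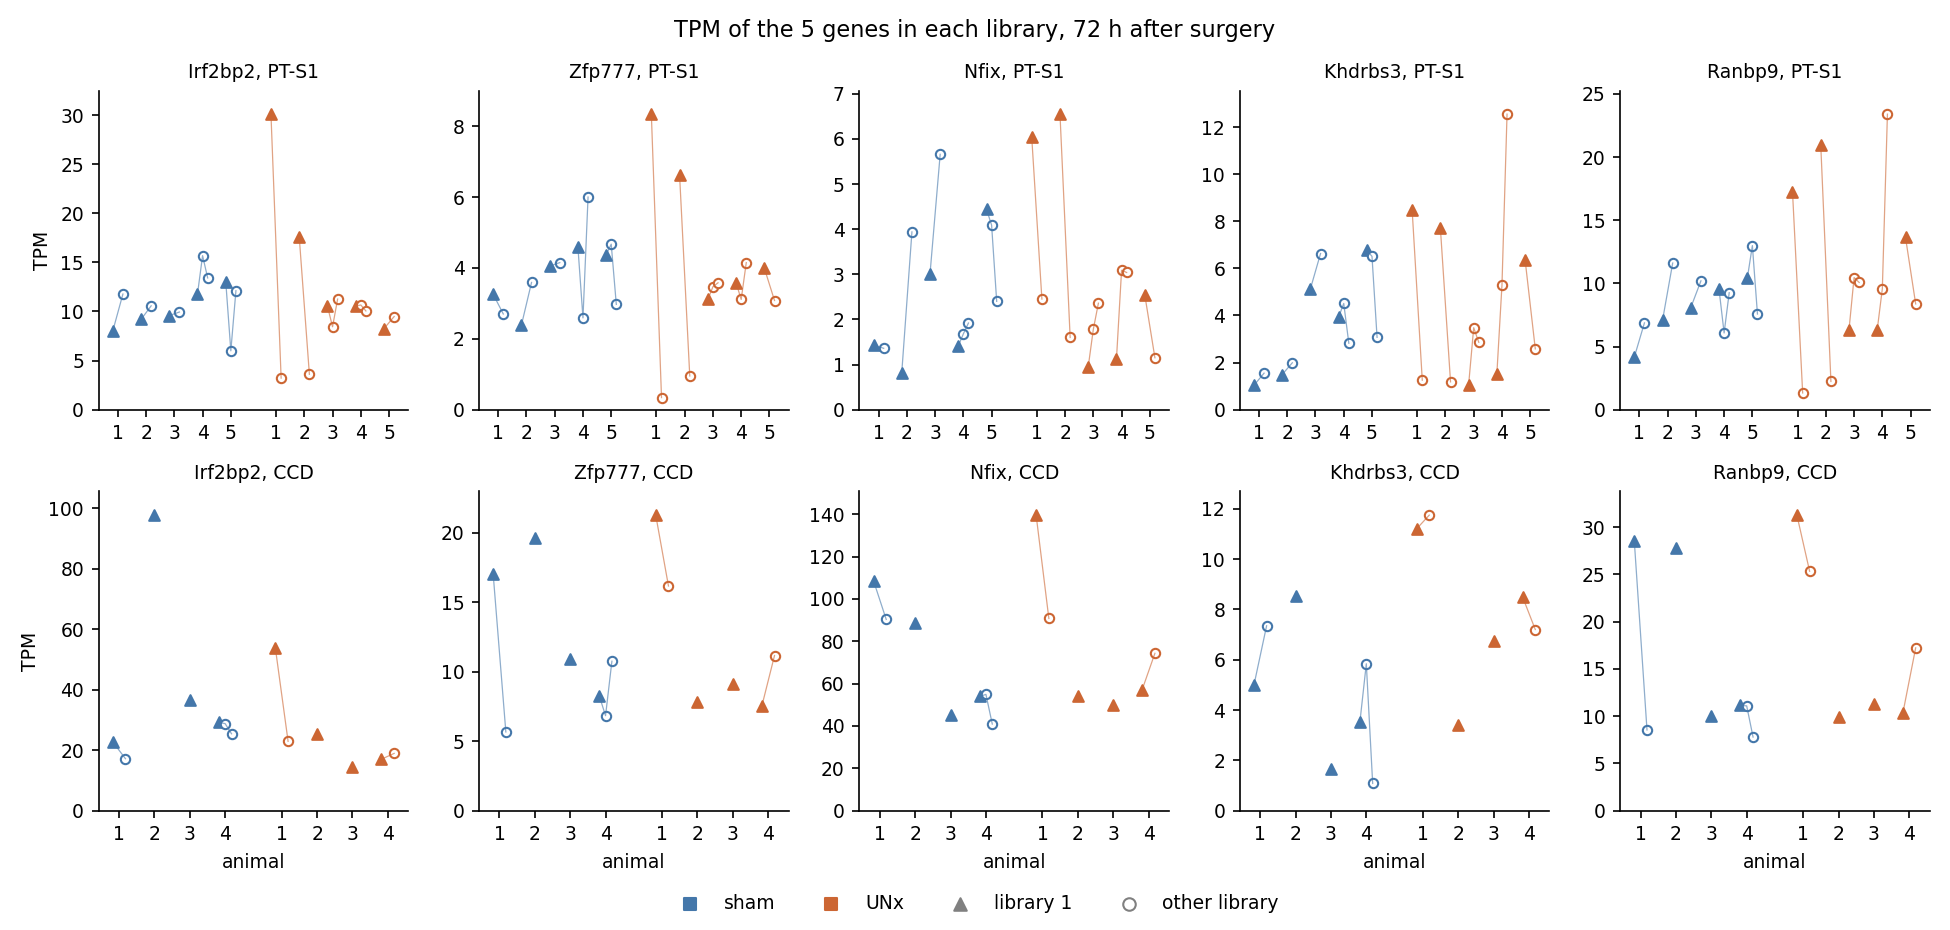
TPM (y axis) of the 5 genes in every library at 72 h, for PT-S1 (upper row) and CCD (lower row), drawn by animal (x axis) with triangles for library 1 and open circles for other libraries, blue for sham and orange for UNx. Sham and UNx animals overlap in every panel, and both libraries of UNx animals 1 and 2 of PT-S1 lie far apart for Irf2bp2 and Zfp777.

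The difference between the segments was tested directly at 72 h, as the PT-S1 effect minus the CCD effect. It was 0.63 for Irf2bp2 (interval -0.33 to 1.59, limma adjusted p = 0.514), -0.01 for Zfp777 (-0.70 to 0.68, 0.986), 0.04 for Nfix (-0.86 to 0.93, 0.967), -0.45 for Khdrbs3 (-1.59 to 0.68, 0.662) and 0.06 for Ranbp9 (-0.85 to 0.97, 0.948). The median over all genes was -0.30. These intervals are wide: for Khdrbs3 and Irf2bp2 they include differences of more than 1 in size. Khdrbs3 alone had a value below -0.1, the sign that the 24 h choice would give, and Irf2bp2 had the opposite sign, but neither differed from 0 beyond the spread between animals. Without the libraries of low correlation the difference was 1.17 for Irf2bp2 (limma adjusted p = 0.316), 0.64 for Zfp777 (0.449), 0.33 for Nfix (0.809), -0.10 for Khdrbs3 (0.955) and 0.84 for Ranbp9 (0.426).

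**Figure D3:**
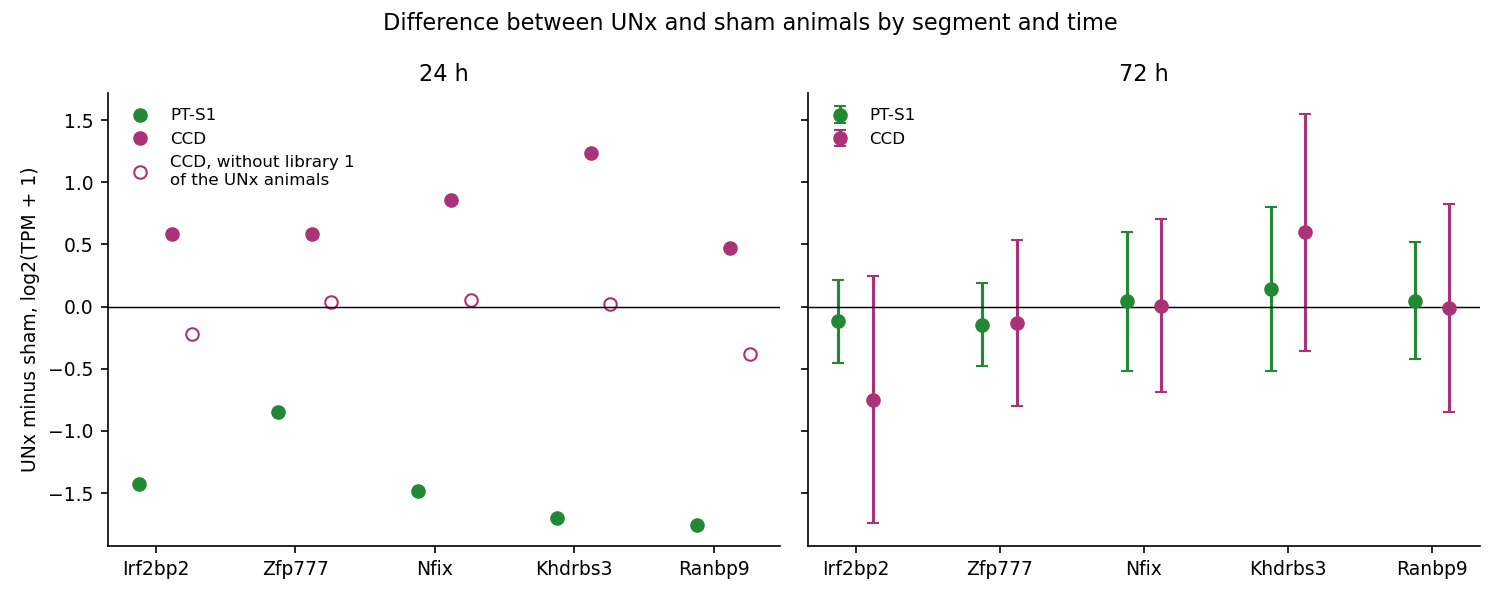
Difference between UNx and sham animals on the log2(TPM + 1) scale (y axis) for each gene (x axis), in PT-S1 (green) and CCD (purple), at 24 h (left) and 72 h (right); open circles leave out library 1 of the UNx animals of CCD 24 h, and bars at 72 h are 95% intervals. At 24 h the filled points lie between -1.76 and -0.85 in PT-S1 and between 0.47 and 1.23 in CCD, and at 72 h every interval includes 0.

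With all libraries kept, the 5 genes varied together within groups in 3 tables, by the median over pairs. In CCD 24 h they did so mainly through library 1 of the UNx animals. After subtracting the mean of each group, the 10 pairs of members had a median Pearson r of 0.903 in CCD 24 h (range 0.793 to 0.944, 15 libraries), and of 0.175 without library 1 of the UNx animals (-0.376 to 0.500, 12 libraries). The median was 0.605 in CCD 72 h (0.249 to 0.890, 13 libraries), 0.649 in PT-S1 72 h (0.318 to 0.873, 24 libraries) and 0.475 in PT-S1 24 h (-0.246 to 0.826, 17 libraries). A member's median r with all other genes was -0.142 in CCD 24 h with all libraries, 0.051 in CCD 72 h, 0.363 in PT-S1 72 h and 0.198 in PT-S1 24 h. Outside CCD 24 h the correlations were not computed without the libraries of low correlation, in which some members lay far out together. In PT-S1 72 h, for example, Ranbp9 was 17.3 and 1.32 TPM in the libraries of UNx animal 1. It was 20.97 and 2.23 TPM in those of UNx animal 2. The values in a table share their libraries and scaling, and the correlations are a description.

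The genes most like each member were ranked by Pearson r across all 32 animals, after subtracting the mean of each table. This r keeps the difference between UNx and sham at 24 h by which the members were chosen, so a high r between members, or with genes high in library 1, follows in part from the choice. Among 10689 genes, Zfp777 was closest to Ranbp9 (r = 0.872) and then to Taf4 (0.851), a subunit of the general transcription factor TFIID. Irf2bp2 was closest to Ski (0.842), a corepressor of Smad proteins, and then to Zfp777 (0.824). Nfix was closest to Khdrbs3 (0.820) and then to Egln1 (0.772), the prolyl hydroxylase that marks HIF-alpha for degradation.
Khdrbs3 was closest to the ubiquitin ligase gene Znrf2 (0.925) and then to Egln1 (0.915). Ranbp9 was closest to Cnnm3 (0.916), a gene of the cyclin M family, and then to Qk (0.896), a STAR family RNA-binding protein. Over these 10 pairs r ran from 0.772 to 0.925, from 0.736 to 0.914 without library 1 of the UNx animals of CCD 24 h, and from 0.632 to 0.913 when group means were subtracted instead. With both changes it ran from 0.622 to 0.875. All 6 of these other genes were also highest in library 1 of the UNx animals of CCD 24 h. Qk, for example, ranged from 76.4 to 95.2 TPM in library 1, from 7.53 to 10.6 TPM in the other UNx libraries and from 11.9 to 23.0 TPM in sham libraries. Egln1 ranged from 26.3 to 32.5 TPM in library 1, from 4.50 to 6.32 TPM in the other UNx libraries and from 5.31 to 12.3 TPM in sham libraries.

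The 80 other genes that were highest in library 1 also varied with the members in the other tables. Across libraries, their median deviation correlated with the members' mean deviation with a Pearson r of 0.981 in CCD 24 h (15 libraries), where they were chosen, and of 0.597 there without library 1 (12 libraries). It was 0.855 in PT-S1 24 h (17 libraries, 69 of the genes), 0.796 in PT-S1 72 h (24 libraries, 68 genes) and 0.641 in CCD 72 h (13 libraries, 79 genes). These deviations are from the table, so in PT-S1 24 h they carry the difference by which the members were chosen. From the group means r was 0.787 in PT-S1 24 h, 0.825 in PT-S1 72 h and 0.635 in CCD 72 h, and in CCD 24 h 0.962, or 0.659 without library 1. In PT-S1 72 h the 2 UNx libraries of low correlation lay far out. They stood at -1.55 and -1.33 for these genes and at -1.26 and -1.12 for the members, as deviations from the table. The r without libraries of low correlation was not computed, nor was that of other sets of genes. These values share libraries and scaling and are a description.

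None of the genes listed with the members as relatives or partners passed the adjusted threshold at 72 h. Of all genes tested, 0% passed in PT-S1 and 0.595% in CCD. The list for Irf2bp2 held its relatives Irf2bp1 and Irf2bpl, and Irf1, Irf2, Vgll4, the Tead genes and Nfatc2. Of these genes, 6 of 10 were tested in PT-S1 and 9 of 10 in CCD, and 0 passed in either direction. Their median difference was -0.52 in PT-S1, where the median of all genes was -0.29, and -0.11 in CCD. Vgll4, the Tead cofactor that binds Irf2bp2, was 26.1 ± 8.15 TPM in sham animals and 14.6 ± 4.31 TPM after UNx in PT-S1 (SD, n = 5 each; -0.80, SE 0.26, limma adjusted p = 0.237). In CCD the gene of that list with the smallest p was Irf1, an interferon-induced transcription factor. Irf1 was at 181.2 ± 89.2 TPM in sham animals and 100.2 ± 76.0 TPM after UNx (n = 4 each, -1.08, SE 0.55, limma adjusted p = 0.740).

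Of the other NFI genes, 3 of 3 were tested and 0 passed. Their medians were -0.41 in PT-S1 and 0.00 in CCD, against -0.29 and 0.01 over all genes. Nfia was 10.6 ± 2.66 TPM in sham animals and 7.68 ± 1.75 TPM after UNx in PT-S1 (limma adjusted p = 0.241), and Nfib was 37.2 ± 4.49 and 30.2 ± 5.61 TPM in CCD (limma adjusted p = 0.786). Of the other STAR genes, 3 of 4 were tested and 0 passed. Their medians were -0.53 in PT-S1 and 0.03 in CCD, against the same medians over all genes. The splicing factor gene Sf1 was 31.1 ± 2.21 TPM in sham animals and 22.3 ± 4.61 TPM after UNx in PT-S1 (limma adjusted p = 0.237), and Qk was 55.8 ± 29.9 and 60.4 ± 22.1 TPM in CCD (limma adjusted p = 0.952).

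Of the CTLH complex and Ran, the small GTPase of nuclear transport, 11 of 11 genes were tested and 0 passed in either segment. All 11 were below 0 in PT-S1 (median -0.41), as were 83% of all genes (median -0.29), and 8 of 11 were below 0 in CCD (median -0.03), as were 47.8% of all genes (median 0.01). Gid4, a substrate receptor of the complex, was 9.21 ± 1.62 TPM in sham animals and 6.35 ± 0.700 TPM after UNx in PT-S1 (limma adjusted p = 0.237). Rmnd5b, a RING subunit, was 81.2 ± 17.6 and 59.2 ± 7.67 TPM in CCD (limma adjusted p = 0.551).
Of the zinc finger genes of the Zfp777 cluster and Trim28, 7 of 9 were tested in each segment and 0 passed. Their medians were -0.40 in PT-S1 and 0.11 in CCD, against -0.29 and 0.01 over all genes. Zfp398 was 3.63 ± 0.659 TPM in sham animals and 2.61 ± 0.325 TPM after UNx in PT-S1 (limma adjusted p = 0.237), and Zfp786 was 1.02 ± 0.604 and 1.83 ± 0.393 TPM in CCD (limma adjusted p = 0.698). Related zinc finger genes can share reads, so these values are uncertain. For the difference between the segments, 0 genes of the 5 lists passed, as did 0% of all genes. Unadjusted limma p was under 0.05 in PT-S1 72 h for 4 of 6 genes of the Irf2bp2 list and 1 of 3 NFI genes. It was so for 2 of 3 STAR, 6 of 11 CTLH and Ran and 3 of 7 Zfp777 cluster genes, against 20.5% of all genes. In CCD 72 h it was so for 2 of 11 CTLH and Ran genes and 0 in the other lists, against 7.49%. At 24 h, where the members had been chosen, Qk alone of 33 list genes tested was highest in library 1 of every UNx animal of CCD. Of all genes, 0.617% were. Irf2bp1, like some other list genes, had the members' signs at 24 h (-0.63 in PT-S1 and 0.46 in CCD), as had 28.6% of genes. In CCD 24 h it was 37.8 to 46.6 TPM in library 1, 37.6 to 46.9 TPM in the other UNx libraries and 19.6 to 40.1 TPM in sham libraries.

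The transcripts of the members each held a stretch of high GC content, least so for Nfix. In the longest protein-coding transcript of each gene (GENCODE M21), the richest window of 100 bases was 94% GC in Irf2bp2 and Ranbp9, 92% in Khdrbs3, 87% in Zfp777 and 83% in Nfix. The median over 10179 genes with such a transcript, 92.2% of the genes tested in both segments at 72 h, was 72%. Windows at least as rich were found in 0.0982% of these genes for Irf2bp2 and for Ranbp9, 0.216% for Khdrbs3, 3.39% for Zfp777 and 11.6% for Nfix.
The GC content of the whole transcript was less unusual, from 50.6% in Ranbp9 to 59.1% in Zfp777 with a median of 49.98% over all genes. Between 6.13% (Zfp777) and 46.9% (Ranbp9) of genes had at least as much. The window was 1 of several transcript measures examined (GC of the whole transcript and of its start, the richest window, the share and the number of rich windows, and length), and was chosen after their values were seen. Deviations here are relative to all genes. In library 1 of the UNx animals of CCD 24 h, the 1381 genes richest by this window had median deviations of -0.047 to 0.021. The members' mean deviations there were 1.41 to 1.61. In some PT-S1 libraries both were displaced in the same direction: 0.596 for those richest genes and 1.18 for the members in library 1 of sham animal 1 at 24 h, and at 72 h -0.155 and -0.160 for the richest genes and -1.23 and -1.09 for the members in library 2 of UNx animals 1 and 2, all libraries of low correlation. Library 2 of UNx animal 2 at 24 h, not of low correlation, had -0.184 and -1.16. In other PT-S1 libraries the signs were opposite, such as library 2 of sham animal 3 at 24 h, also of low correlation (0.05 and -0.41). Library 2 of UNx animal 3 at 24 h had 0.078 and -0.622. The lowest value of the richest genes in PT-S1, -0.196, went with only -0.17 for the members. Medians over so many genes cannot show how genes with windows as rich as those of Irf2bp2, Ranbp9 and Khdrbs3 behaved. The part of GC content in the members' values was not tested.

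**Figure D4:**
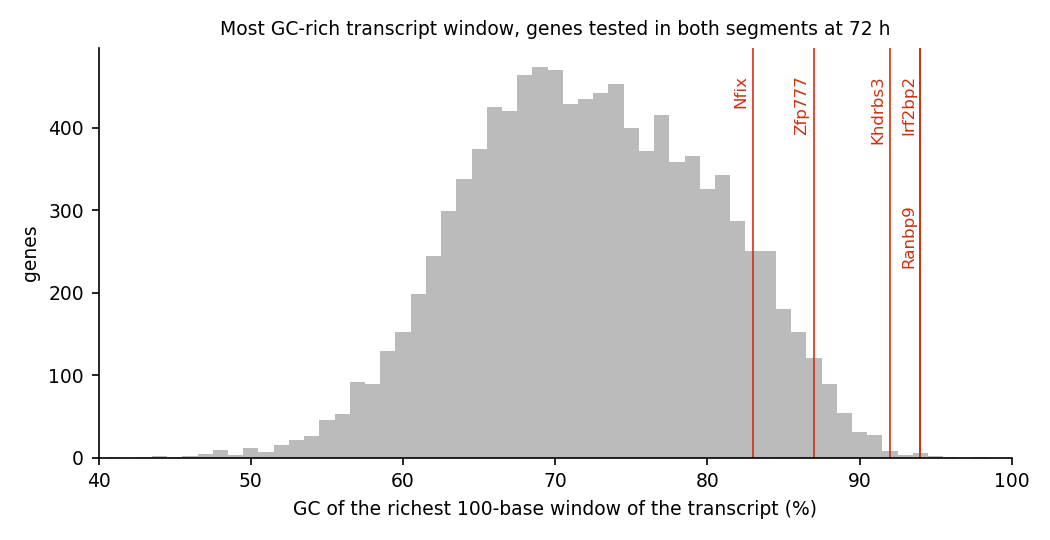
Number of genes (y axis) by the GC content of the richest 100-base window of their longest protein-coding transcript (x axis), for 10179 genes tested in both segments at 72 h. Red lines mark the 5 genes, from 83% for Nfix to 94% for Irf2bp2 and Ranbp9, above the median of 72%.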

How the data were processed

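The authors deposited 4 tables of TPM values per gene and library, 1 for each segment and time. The submitters' processing notes name STAR, RSEM 1.3.3 and the build GRCm39; their settings are not given in the sources used here. Per the labels' protocols, a Zymo kit gave the RNA and the SMART-Seq V4 kit made cDNA of polyA RNA. All 69 columns were used, of which 47 matched 1 sample title and 22 matched an animal but not a library number. TPM values were taken as log2(TPM + 1), which understates changes of low genes, and averaged per animal. Genes whose mean TPM was 1 or more were tested by limma 3.58.1 in R 4.3.3 (two-sided, with a mean-variance trend, Benjamini-Hochberg adjustment over all genes tested, threshold 0.05). The difference between segments was a contrast of the 4 groups at 72 h. Single genes at 72 h were also set against sham by an exact permutation test over animals, two-sided (scipy 1.17.1), unadjusted over the 5 genes. Which animals shared a surgery or dissection day is not given, so p-values measure only the spread between these animals.

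The 5 genes and all gene lists were chosen with earlier results of these data known. The named genes are the 5 members, the list gene with the smallest p in each segment at 72 h where none passed, and the 2 genes with the highest r with each member over animals, without predicted genes and pseudogenes. The lists held relatives and partners of Irf2bp2 with Irf1, the NFI family, the STAR family, the CTLH complex with Ran, and the Zfp777 gene cluster with Trim28. The comparison with and without library 1 of CCD 24 h, the correlations from group means, the 85 genes and the GC window were chosen after the values were seen. Alternatives were another pseudocount, no filter, 2 other scalings, log2 of the mean TPM, libraries with the animal as a random effect, no libraries of low correlation, leaving out each animal and a replicate block. The model scripts were tested on simulated data.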

Additional observations from a re-analysis of the deposited data

Results flagged for a closer look

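Of 30 groups of 4 or more animals examined for the 5 genes, 1 held an animal far from the others. Irf2bp2 in PT-S1 72 h was 13.6 TPM in sham animal 4, from 3 libraries of 11.8, 15.7 and 13.4 TPM, against 9.76 to 10.4 TPM in the other 4 sham animals. Its gap to the nearest animal was 0.952 of the group's range on the log2 scale. Chance flags about 1 in 20 groups. Without that animal the difference between UNx and sham for Irf2bp2 was -0.03.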

How the results depend on the processing

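No member passed the adjusted threshold at 72 h under any setting (0 of the member effects). With other settings than leaving out an animal, 19 of 115 effects at 72 h changed sign, as did 43 of 180 when an animal was left out; the cause was not tested. In PT-S1 72 h these were Irf2bp2 (0.215 with median-ratio scaling, 0.225 with quantile normalization, 0.054 with the log2 of mean TPM, 0.371 without libraries of low correlation), Zfp777 (0.057, 0.044, 0.020 and 0.331 in the same order) and Ranbp9 (-0.005 with a pseudocount of 0.1). In CCD 72 h they were Zfp777 (0.061) and Ranbp9 (0.199) under a random effect of animal, and Nfix (-0.014 with median-ratio scaling, -0.027 without libraries of low correlation). For the difference between segments they were Zfp777 (0.206 with median-ratio scaling, 0.202 with quantile normalization, 0.193 with the log2 of mean TPM, 0.644 without libraries of low correlation), and Nfix (-0.142) and Ranbp9 (-0.170) with the animal as a random effect.

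Leaving out each animal gave, in PT-S1 72 h, -0.083 to 0.194 for Nfix, -0.073 to 0.324 for Khdrbs3 and -0.084 to 0.185 for Ranbp9. In CCD 72 h it gave -0.387 to 0.102 for Zfp777, -0.242 to 0.195 for Nfix and -0.316 to 0.288 for Ranbp9. The difference between segments ranged from -0.248 to 0.242 for Zfp777, -0.153 to 0.284 for Nfix and -0.240 to 0.365 for Ranbp9. The genes changed in PT-S1 72 h numbered 0 for each animal left out, those in CCD 72 h 8 to 73, those differing between segments 0 to 1, and the members lower in PT-S1 and higher in CCD 0 to 2 (2 without sham animal 1 or 2 of PT-S1).

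With the animal as a random effect, 10 genes were called in PT-S1 72 h, 2 for the difference, and 1 member was lower in PT-S1 and higher in CCD. Without libraries of low correlation, 1, 129 and 9 genes were called in PT-S1, CCD and the difference. With no filter, 7 genes were called in CCD and 1 in the difference. Same-numbered animals did not deviate together: the correlations ranged from -0.366 to 0.328 in PT-S1 72 h and from -0.010 to 0.176 in CCD 72 h. The replicate block gave 3 genes in CCD 72 h and 0 in PT-S1. At 24 h the members' signs held under all other settings, while without library 1 of the UNx animals in CCD Irf2bp2 (-0.220) and Ranbp9 (-0.380) changed sign and Zfp777 (0.033), Nfix (0.052) and Khdrbs3 (0.017) came near 0.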
